A study of Arabidopsis thaliana with 11 samples.

Results

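The 32 genes described here encode enzymes and regulators of the Calvin cycle and of photorespiration in Arabidopsis thaliana, out of 33602 genes in the deposited RNA sequencing table. They were chosen by name, with no measured value in the rule: the nuclear small subunit genes of Rubisco (RBCS), Rubisco activase (RCA), the CP12 proteins and the nuclear Calvin cycle enzymes (20 genes), and the enzymes of the glycolate pathway (12 genes). Expression was measured in fluorescent protoplasts, which are cells freed of their walls, sorted from 5 marker lines in the Col background. In ML1Y, the ML1 promoter drives YFP fused to the membrane protein RCI2A, and the label names the sorted cells epidermis (2 libraries). In SSY, the SPCH promoter drives a fusion of SPCH with YFP, labelled as meristemoid mother cells together with young meristemoids (3 libraries). In MG, the MUTE promoter drives a nuclear GFP, labelled as late meristemoids with young guard mother cells (2 libraries). In FGF, the FAMA promoter drives a GFP-FAMA fusion, labelled as guard mother cells that have matured, with young guard cells (2 libraries). E1728G is the enhancer trap line E1728::GFP, labelled as guard cells that are mature (2 libraries). All plants were 10 days old, had grown in long days (16 h light, 8 h dark) at 25 °C, and were digested for 2 h to free protoplasts from the aerial tissue. Each library came from about 10 ng of total RNA, from 4000 to 20000 sorted cells, amplified before sequencing. SPCH-YFP and GFP-FAMA each add a copy of the gene to its line, and the labels do not say whether replicates came from separate plants, so p-values measure only the spread between these libraries.

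The Calvin cycle fixes carbon dioxide in the chloroplast stroma: Rubisco joins it to ribulose bisphosphate, phosphoglycerate is reduced to triose phosphate at the cost of ATP and NADPH, and the remaining enzymes regenerate the acceptor. Rubisco also takes oxygen in place of carbon dioxide, which yields phosphoglycolate, and photorespiration returns most of that carbon to the cycle by way of the chloroplast, the peroxisome and the mitochondrion. In leaves, mesophyll cells carry most of this metabolism, while the chloroplasts of epidermal pavement cells and guard cells are fewer or smaller.

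Rubisco small subunits come from 4 nuclear genes whose coding sequences are close to each other, which bears on how far their values can be told apart. Over the whole coding sequence, RBCS1A shared 90.4% to 90.6% of its bases with the other 3, which shared 96.7% to 97.25% with each other. The lines give bases 391 to 510 of the RBCS1A coding sequence and the aligned stretch of the other 3, from the TAIR10.1 assembly, with coordinates in that build. Capitals mark bases that differ from RBCS1A.
RBCS1A (chr1:25048498-25048617, minus strand): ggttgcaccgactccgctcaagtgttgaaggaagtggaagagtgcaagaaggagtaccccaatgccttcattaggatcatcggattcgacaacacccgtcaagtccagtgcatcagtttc
RBCS1B (chr5:15384386-15384505, minus strand): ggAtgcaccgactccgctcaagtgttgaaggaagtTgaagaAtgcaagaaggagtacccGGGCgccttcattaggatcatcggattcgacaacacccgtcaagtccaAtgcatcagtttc
RBCS2B (chr5:15381239-15381358, minus strand): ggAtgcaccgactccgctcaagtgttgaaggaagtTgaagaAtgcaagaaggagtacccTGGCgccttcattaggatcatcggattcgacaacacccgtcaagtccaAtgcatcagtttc
RBCS3B (chr5:15377537-15377656, minus strand): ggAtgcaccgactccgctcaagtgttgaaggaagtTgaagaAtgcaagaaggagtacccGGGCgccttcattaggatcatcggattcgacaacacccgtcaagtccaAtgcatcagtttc
In this stretch of 120 bases, each of the 3 differed from RBCS1A at 8 positions. RBCS1B and RBCS3B differed from each other at 0 positions here, and RBCS2B differed from either at 1. Of the windows of 50 bases in the RBCS1B coding sequence, 30.4% were also found in RBCS2B and 36.4% in RBCS3B, and of those in RBCS2B, 20.9% were found in RBCS3B. The labels do not say whether reads from such windows were split, assigned or dropped, so the separate values of RBCS1B, RBCS2B and RBCS3B are uncertain.

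Values are the authors' normalized log2 values, in which 1 unit is a doubling (base 2 was inferred), and read depth is unknown. The marker genes went partly against the labels. MUTE was highest in the MG libraries, at 7.65 and 9.86 against 3.77 to 5.24 in the other 9. FAMA was highest in FGF, at 14.03 and 14.90, in a line that carries an added GFP-FAMA copy. The part of that copy in these values was not tested. SPCH in the libraries labelled SSY was 5.46, 6.12 and 5.15, overlapping 6.36 and 5.92 in ML1Y. All 6 guard cell markers had higher means in the libraries labelled SSY than in ML1Y. For FAMA, TGG1 and KAT2 every library labelled SSY lay above both ML1Y libraries, while KAT1, MYB60 and HT1 overlapped ML1Y. SSY below therefore stands for the libraries labelled SSY, whose values over all genes also had a narrower interquartile range, 2.45 to 2.55 log2 units against 2.83 to 3.51 in the other 8. The 6 epidermis markers (ATML1, PDF2, PDF1, FDH, CER5, LTP1) were not highest in ML1Y, where their summed share of the linear total was 0.0142% to 0.0186%, against 0.0150% to 0.140% elsewhere.

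Nearly all of the genes were far higher in the ML1Y libraries than in any sorted stage of the stomatal lineage. Both ML1Y libraries lay above all 9 other libraries for 29 of the 32 genes, against 6.46% of the 29850 genes tested. The exceptions were CP12-2, CP12-3 and the glycerate kinase gene GLYK. Together the 32 genes made up 2.48% and 2.86% of the summed linear values in the ML1Y libraries, and 0.0767% to 0.181% in the 9 others. The libraries of the 4 stages overlapped in this share: it ran from 0.0767% to 0.167% in SSY, 0.0959% to 0.181% in MG, 0.104% to 0.116% in FGF and 0.107% to 0.121% in E1728G. In sorted bulk samples, fewer cells of a type and less RNA per cell cannot be told apart.

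**Figure D1:**
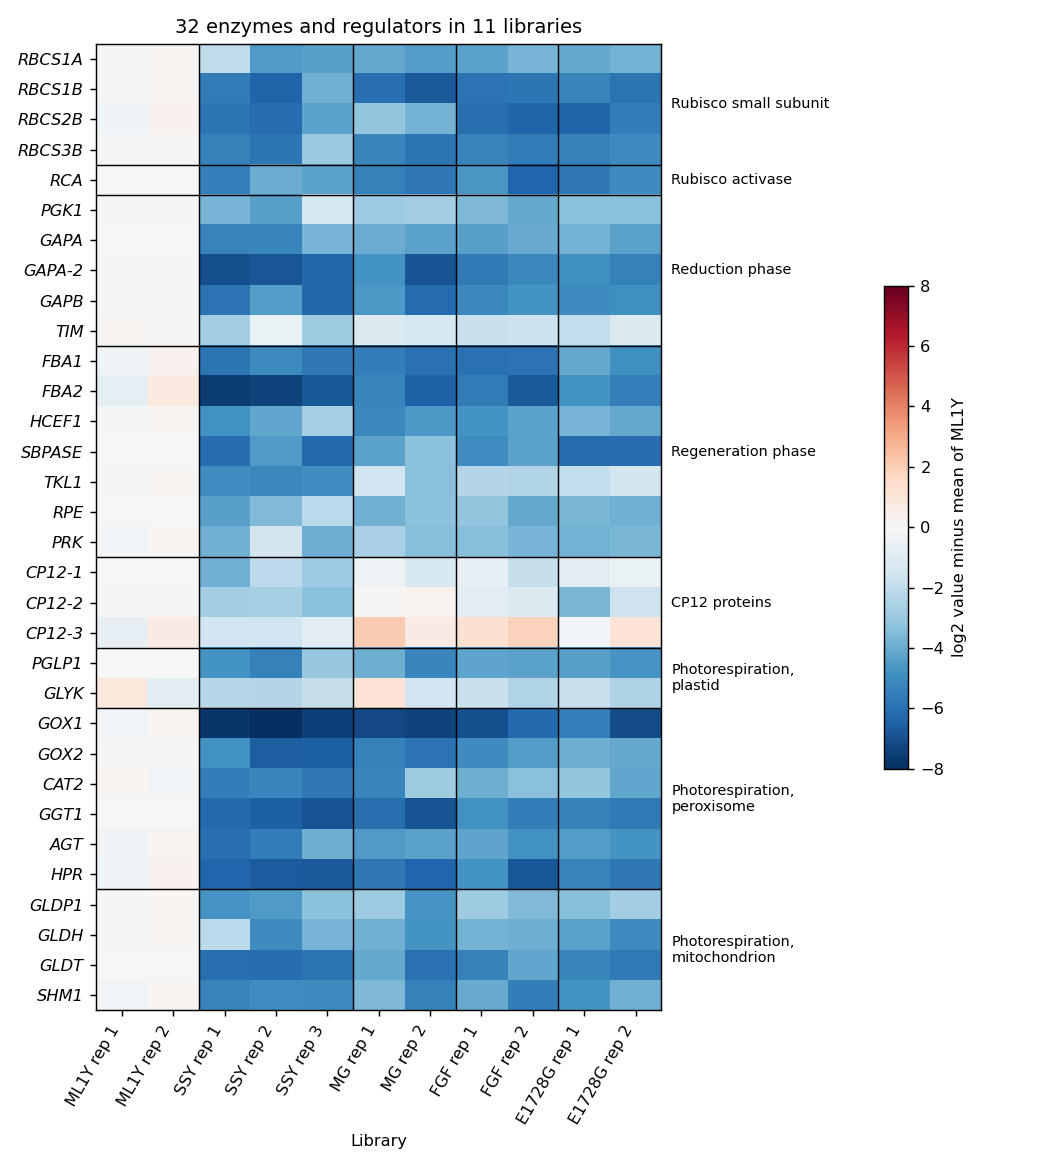
Deposited log2 value of each of the 32 genes (rows, grouped by role) minus its mean over the 2 ML1Y libraries, for the 11 libraries (columns); blue is lower than ML1Y and red higher. The 9 libraries of the 4 stages are blue for all but a few genes, and CP12-3 is the gene that is red in most MG, FGF and E1728G libraries.

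Differences were tested with limma, a linear model over all 29850 genes with two-sided p-values adjusted over genes and a threshold of 0.05. By that test 29 of the 32 fell in SSY against ML1Y, with a median log2 difference of -4.90, that is 29.8-fold lower, beside 0.06 over all genes tested. The background share of genes called lower in that comparison was 4.75%, and of genes called higher 0.801%. In MG 23 fell (median -4.37, background 1.43% lower and 0.188% higher), in FGF 24 (median -4.52, background 1.89% and 0.221%), and in E1728G 25 (median -4.40, background 2.09% and 0.348%). None of the 32 was called higher than ML1Y in any of these 4 limma comparisons, and at an unadjusted p under 0.05 the count higher was 1 in FGF and 0 in each of the others. Background shares of genes called, here and below, are for the adjusted threshold, and none was computed at the unadjusted one. The 4 comparisons share the 2 ML1Y libraries. The counts rested on both of them: without ML1Y replicate 1 they were 19, 10, 14 and 11 in SSY, MG, FGF and E1728G, and without ML1Y replicate 2 they were 18, 6, 6 and 7, with the lone library assumed to vary like the others. The count for MG was 9 without MG replicate 2, that for FGF was 13 without FGF replicate 1 and 11 without FGF replicate 2, and that for E1728G was 10 without E1728G replicate 1 and 16 without E1728G replicate 2. In each of these fits the same comparison also called fewer genes over all genes tested than in the full fit. The loss of calls is thus not particular to the 32 genes. The medians of the 32 genes moved less, between -5.16 and -4.59 for SSY, -4.65 and -4.09 for MG, -4.61 and -4.27 for FGF, and -4.52 and -4.10 for E1728G over all 11 fits that left out 1 library. In those 11 fits, 18 of the 29 calls remained in SSY, 6 of 23 in MG, 6 of 24 in FGF and 7 of 25 in E1728G, and GOX1, FBA1 and HPR were among them in each of the 4.

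Chlorophyll antenna and carbonic anhydrase genes that are abundant in mesophyll moved with these enzymes. All 6 on that list (CAB3, CAB1, LHCB2.1, CA1, LHCB3, LHCB6) fell in SSY and in MG, and 5 of 6 in FGF and in E1728G, LHCB3 missing the threshold in both. Their summed share of the linear total was 0.769% to 0.997% in ML1Y and 0.0175% to 0.0775% in the other 9 libraries, and the lowest value of any of the 6 in a stage library was 5.51, of LHCB2.1. Their part in the difference of the Calvin cycle and photorespiration genes was not tested.

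**Figure D2:**
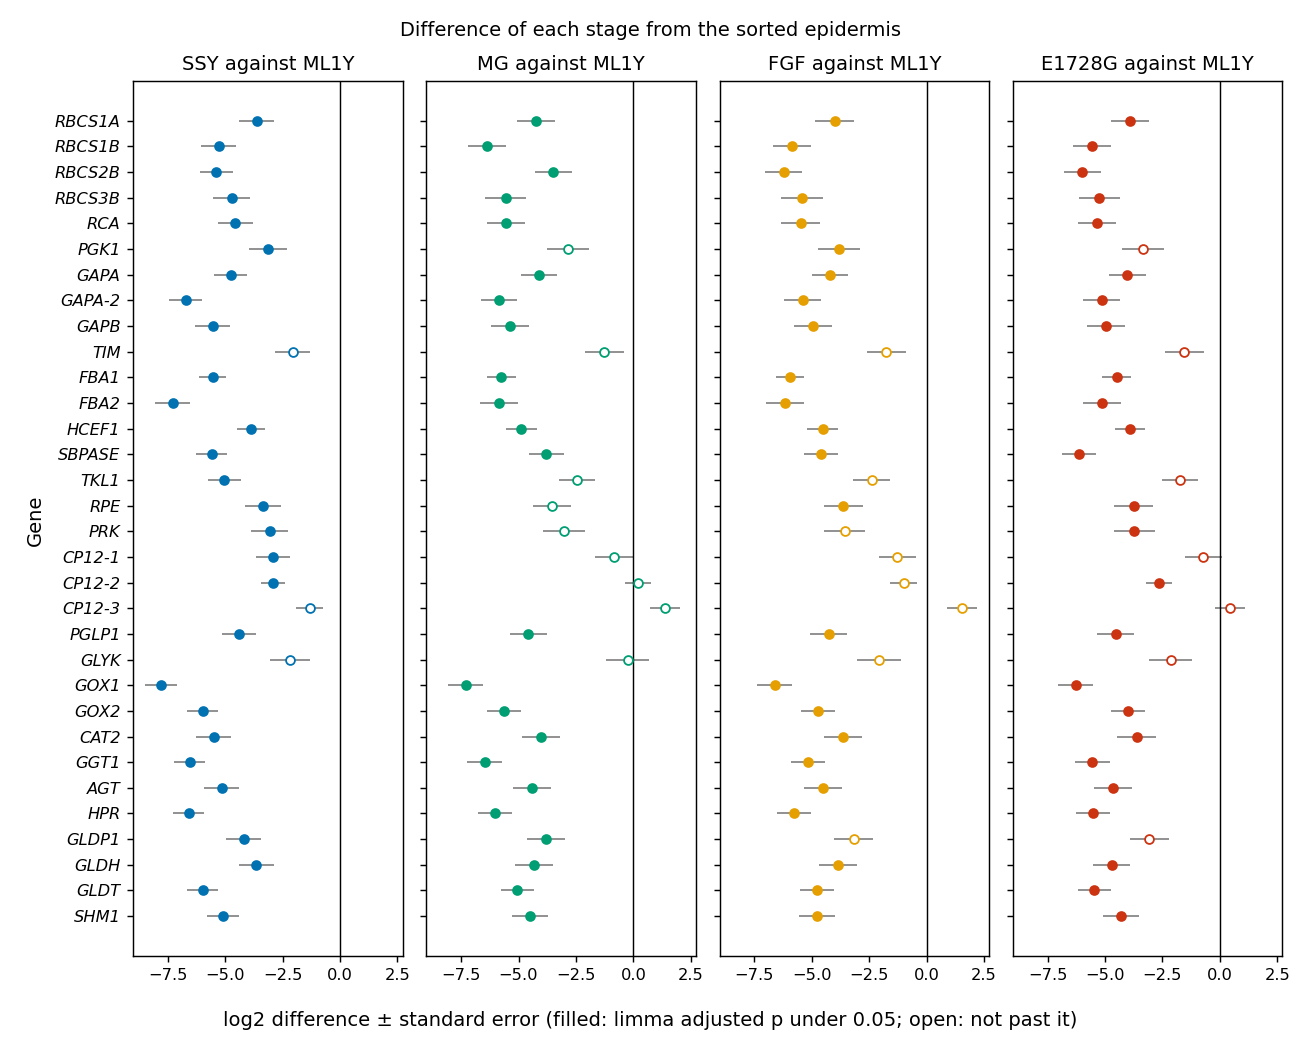
Log2 difference of each stage from ML1Y in the limma fit (horizontal axis, point with its standard error) for the 32 genes (vertical axis); filled points passed the adjusted threshold of 0.05 and open points did not. Points lie left of 0 for all genes in SSY and for all but CP12-2 and CP12-3 in MG, with GOX1 farthest left in SSY at -7.78.

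All 4 small subunit genes and RCA, the chaperone that frees the Rubisco active site of bound sugar phosphates, fell in every stage. RBCS1A (AT1G67090) read 16.42 and 16.71 in ML1Y, 14.53, 12.04 and 12.21 in SSY, 12.49 and 12.15 in MG, 12.27 and 12.85 in FGF and 12.48 and 12.81 in E1728G. Both ML1Y libraries were above the other 9, and SSY replicate 1 stood above every other stage library. The log2 difference from ML1Y, with its standard error, was -3.64 ± 0.76 in SSY (adjusted p = 0.0117), -4.25 ± 0.84 in MG (adjusted p = 0.0182), -4.004 ± 0.84 in FGF (adjusted p = 0.0208) and -3.92 ± 0.84 in E1728G (adjusted p = 0.0214) in the limma fit, or 12.5-, 19-, 16- and 15.2-fold lower. RBCS1B (AT5G38430) read 12.97 and 13.31 in ML1Y, 7.52, 6.74 and 9.29 in SSY, 7.11 and 6.42 in MG, 7.22 and 7.36 in FGF and 7.84 and 7.29 in E1728G. Its 9 stage libraries lay at least 3.68 units below ML1Y, with SSY replicate 3 the highest of them. It fell by 5.29, 6.37, 5.85 and 5.57 in SSY, MG, FGF and E1728G, with limma adjusted p of 0.00106, 0.00238, 0.00245 and 0.00322.

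RBCS3B (AT5G38410) read 13.34 and 13.58 in ML1Y, 8.05, 7.68 and 10.49 in SSY, 8.18 and 7.62 in MG, 8.19 and 7.89 in FGF and 8.09 and 8.34 in E1728G, and SSY replicate 3 was again the highest stage library. RCA (AT2G39730) read 15.75 and 15.84 in ML1Y, 10.35, 11.85 and 11.50 in SSY, 10.38 and 10.09 in MG, 11.14 and 9.47 in FGF and 10.10 and 10.78 in E1728G, with no overlap between ML1Y and the rest. Its log2 difference was -4.56 ± 0.76 in SSY (adjusted p = 0.003), -5.56 ± 0.83 in MG (adjusted p = 0.00451), -5.49 ± 0.83 in FGF (adjusted p = 0.00348) and -5.36 ± 0.83 in E1728G (adjusted p = 0.00407) in the limma fit, and that of RBCS3B ran from -5.56 in MG to -4.72 in SSY. RBCS2B (AT5G38420) read 13.12 and 13.80 in ML1Y, 7.71, 7.35 and 9.17 in SSY, 10.29 and 9.68 in MG, 7.45 and 7.04 in FGF and 7.04 and 7.92 in E1728G. The MG libraries were the highest of the 9 stage libraries and overlapped with none of the others, so that the fall from ML1Y was 3.48 in MG (limma adjusted p = 0.0439) beside 6.22 in FGF (adjusted p = 0.0018). The RBCS2B call in MG held in 3 of 11 fits that left out 1 library, those without an SSY replicate, and its limma adjusted p reached 0.414 without ML1Y replicate 2. In the same comparison RBCS1B kept its call in all 11 fits, RBCS3B and RCA in 8 and RBCS1A in 7; each of these 3 lost it without ML1Y replicate 1 or 2 or MG replicate 2, and RBCS1A also without MG replicate 1. The differences between stages missed the limma threshold: FGF minus MG was -2.74 ± 0.81 (adjusted p = 0.241) and MG minus SSY was 1.91 ± 0.74 (adjusted p = 0.196).

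Per kilobase of coding sequence, RBCS1A gave most of the small subunit signal in every library. Its share of the 4 genes was 74.7% and 76.6% in ML1Y, 77.5% and 80.7% in MG, 89.1% and 93.4% in FGF, and 90.2% and 91.0% in E1728G. The SSY libraries spread from 64.8% to 97.3% and overlapped all other groups. RBCS2B made up 16.8% and 14.5% in MG, 7.73% and 9.91% in ML1Y, and 1.66% to 3.13% in FGF and E1728G. RBCS3B reached 19.0% in SSY replicate 3, above its share in the 10 other libraries. These shares are descriptions, and they carry the uncertainty of reads shared among RBCS1B, RBCS2B and RBCS3B.

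**Figure D3:**
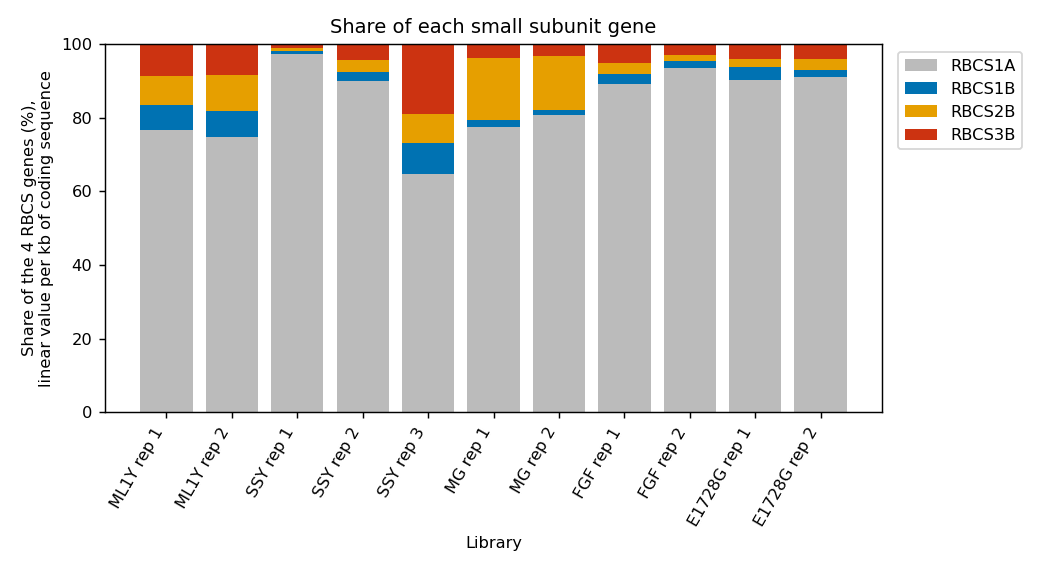
Share in percent of each RBCS gene in the summed linear value per kilobase of coding sequence (stacked bars) in each of the 11 libraries. RBCS1A takes 64.8% to 97.3%, and the RBCS2B segment is widest in the 2 MG libraries, at 16.8% and 14.5%.

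The reduction phase turns phosphoglycerate into triose phosphate. PGK1 (AT3G12780), a chloroplast phosphoglycerate kinase, and GAPA (AT3G26650), GAPA-2 (AT1G12900) and GAPB (AT1G42970), subunits of the NADPH-using glyceraldehyde phosphate dehydrogenase, fell in SSY and in FGF, and the 3 dehydrogenase genes fell in MG and E1728G as well. GAPA-2 had the largest SSY difference of this phase and read 13.36 and 13.52 in ML1Y, 6.38, 6.62 and 7.14 in SSY, 8.67 and 6.50 in MG, 7.80 and 8.28 in FGF and 8.56 and 8.02 in E1728G. MG replicate 1 was the highest stage library and MG replicate 2 was near the lowest. Against ML1Y it differed by -6.72 ± 0.73 in SSY (adjusted p = 0.000204), -5.85 ± 0.80 in MG (adjusted p = 0.00293), -5.40 ± 0.80 in FGF (adjusted p = 0.00299) and -5.15 ± 0.80 in E1728G (adjusted p = 0.00398) in the limma fit. Across the 4 comparisons GAPA lay between -4.76 and -4.03, and GAPB between -5.56 and -4.95. PGK1 was -2.85 ± 0.91 in MG (limma adjusted p = 0.177) and -3.33 ± 0.91 in E1728G (adjusted p = 0.0755), which missed the threshold. Its call in SSY, at -3.13 (limma adjusted p = 0.0414), held in 1 of 11 fits that left out 1 library, and its call in FGF in 3.

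TIM (AT2G21170), the chloroplast triose phosphate isomerase, was counted here with the reduction phase rather than with regeneration. It had the smallest differences of the genes grouped there. It read 10.36 and 10.11 in ML1Y, 7.43, 9.70 and 7.37 in SSY, 9.07 and 8.86 in MG, 8.43 and 8.52 in FGF and 8.29 and 9.08 in E1728G. SSY replicate 2 came within 0.41 units of the lower ML1Y library, but none of the 9 reached it. Its differences from ML1Y were -2.07 ± 0.77 in SSY (adjusted p = 0.148), -1.27 ± 0.84 in MG (adjusted p = 0.721), -1.76 ± 0.84 in FGF (adjusted p = 0.435) and -1.55 ± 0.84 in E1728G (adjusted p = 0.505), and none of these passed the limma threshold.

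In the regeneration phase, counted without TIM, all 7 genes fell in SSY, 4 in MG, 5 in FGF and 6 in E1728G. The plastid aldolases FBA1 (AT2G21330) and FBA2 (AT4G38970), the fructose bisphosphatase HCEF1 (AT3G54050) and the sedoheptulose bisphosphatase SBPASE (AT3G55800) fell in all 4. FBA2 read 13.72 and 15.24 in ML1Y, 6.86, 7.07 and 7.68 in SSY, 9.26 and 8.01 in MG, 8.90 and 7.73 in FGF and 9.67 and 9.02 in E1728G. All 3 SSY libraries were below the 8 others, and the 2 ML1Y libraries differed by 1.53 units, more than for any other gene here but GLYK. The log2 difference of FBA2 was -7.28 ± 0.76 in SSY (adjusted p = 0.00017), -5.85 ± 0.83 in MG (adjusted p = 0.00386), -6.16 ± 0.83 in FGF (adjusted p = 0.00194) and -5.13 ± 0.83 in E1728G (adjusted p = 0.00544) in the limma fit. FBA1, from -5.95 in FGF to -4.49 in E1728G, had smaller standard errors (0.57 and 0.63), and its 4 calls held in every fit that left out 1 library. HCEF1 read 9.56 and 9.81 in ML1Y, 4.87, 5.55 and 7.05 in SSY, 4.54 and 5.09 in MG, 4.89 and 5.43 in FGF and 5.98 and 5.58 in E1728G, with SSY replicate 3 the highest stage library, and fell by 3.86, 4.87, 4.53 and 3.91. SBPASE had its lowest mean in E1728G, at 5.90 and 5.97 against 7.82 and 8.79 in MG, with a difference from ML1Y of -6.15 beside -3.78.

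PRK (AT1G32060), the phosphoribulokinase that completes the acceptor, had the smallest SSY difference of the regeneration genes as grouped here, without TIM. It read 13.13 and 13.52 in ML1Y, 9.45, 11.88 and 9.45 in SSY, 10.70 and 9.91 in MG, 9.91 and 9.60 in FGF and 9.56 and 9.64 in E1728G. SSY replicate 2 was 2.42 units above the other 2 SSY libraries, which had the same value to 2 decimals. Against ML1Y, PRK differed by -3.06 ± 0.82 in SSY (adjusted p = 0.0416), -3.02 ± 0.89 in MG (adjusted p = 0.133), -3.57 ± 0.89 in FGF (adjusted p = 0.0558) and -3.72 ± 0.89 in E1728G (adjusted p = 0.0411) in the limma fit. The SSY call held in 1 of 11 fits that left out 1 library, and the E1728G call in 3 of 11. RPE (AT5G61410), the ribulose phosphate epimerase, had stage means within 0.400 log2 units of each other, and its differences from ML1Y ran from -3.36 to -3.76. It passed in SSY, FGF and E1728G, while in MG the limma adjusted p was 0.0515. Its calls held in 9 of 11 fits that left out 1 library in SSY, 3 in FGF and 7 in E1728G.

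TKL1 (AT3G60750), a plastid transketolase, had its lowest values in the SSY libraries. It read 12.76 and 13.10 in ML1Y, 7.96, 7.76 and 7.96 in SSY, 11.40 and 9.59 in MG, 10.57 and 10.50 in FGF and 10.94 and 11.45 in E1728G. The SSY libraries agreed within 0.20 units and lay below all 8 others, the other 6 stage libraries lay between them and ML1Y, and MG replicate 1 nearly equalled E1728G replicate 2. TKL1 fell by 5.04 in SSY (limma adjusted p = 0.00106, 32.8-fold), a call that held in 11 of 11 fits that left out 1 library. In MG, FGF and E1728G the differences were -2.44 ± 0.79, -2.40 ± 0.79 and -1.74 ± 0.79, with adjusted p of 0.183, 0.167 and 0.369. The difference of MG minus SSY itself, 2.60 ± 0.72, had a limma adjusted p of 0.0765 and did not pass.

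The CP12 genes, whose small products bind glyceraldehyde phosphate dehydrogenase and phosphoribulokinase when light is lacking, were the least like the rest. CP12-1 (AT2G47400) read 10.49 and 10.48 in ML1Y, 6.65, 8.42 and 7.58 in SSY, 10.08 and 9.20 in MG, 9.85 and 8.58 in FGF and 9.57 and 9.95 in E1728G. The SSY libraries lay below the other 8: the fall was 2.93 in SSY (limma adjusted p = 0.0319, held in 7 of 11 fits that left out 1 library), and the differences in MG, FGF and E1728G were -0.85 ± 0.81, -1.27 ± 0.81 and -0.72 ± 0.81, none of which passed. CP12-2 (AT3G62410) read 6.37 and 6.22 in ML1Y, 3.50, 3.61 and 3.01 in SSY, 6.41 and 6.59 in MG, 5.37 and 5.22 in FGF and 2.62 and 4.67 in E1728G. The 2 MG libraries lay just above ML1Y, FGF lay between, and SSY and E1728G were lowest, with the 2 E1728G libraries 2.05 units apart. Its log2 differences were -2.92 ± 0.52 in SSY (adjusted p = 0.00455), 0.20 ± 0.57 in MG (adjusted p = 1), -1.004 ± 0.57 in FGF (adjusted p = 0.56) and -2.65 ± 0.57 in E1728G (adjusted p = 0.0229) in the limma fit. CP12-3 (AT1G76560) read 4.58 and 5.94 in ML1Y, 3.71, 3.65 and 4.43 in SSY, 7.36 and 5.92 in MG, 6.47 and 7.12 in FGF and 5.01 and 6.35 in E1728G. Its SSY libraries were the lowest of all, and the ML1Y libraries overlapped MG and E1728G and lay below both FGF libraries. In the limma fit its differences from ML1Y were -1.33 ± 0.60 in SSY (adjusted p = 0.234), 1.38 ± 0.66 in MG (adjusted p = 0.472), 1.54 ± 0.66 in FGF (adjusted p = 0.342) and 0.43 ± 0.66 in E1728G (adjusted p = 0.917), and none passed.

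**Figure D4:**
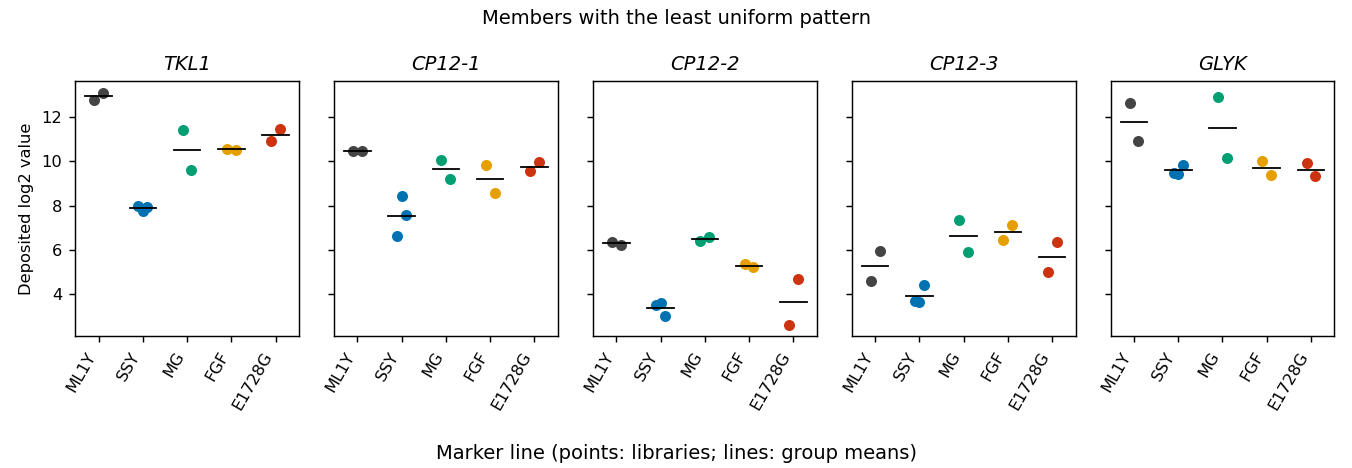
Deposited log2 values (vertical axis) of TKL1, CP12-1, CP12-2, CP12-3 and GLYK in the 5 marker lines; points are libraries and lines group means. The SSY points of TKL1 lie between 7.76 and 7.96, below every other point, and the MG points of CP12-2, at 6.41 and 6.59, lie above the rest.

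In photorespiration, 11 of 12 genes fell in SSY and in MG and 10 in FGF and in E1728G, with medians of -5.33, -4.54, -4.63 and -4.59. For the 20 Calvin cycle genes, 18, 12, 14 and 15 fell, with medians of -4.64, -3.94, -4.36 and -3.98. The first step, in the chloroplast, is removal of phosphate from phosphoglycolate by PGLP1 (AT5G36700). It read 11.62 and 11.52 in ML1Y, 6.80, 6.19 and 8.53 in SSY, 7.65 and 6.32 in MG, 7.35 and 7.26 in FGF and 7.22 and 6.83 in E1728G, with SSY replicate 3 the highest stage library. Its difference from ML1Y was -4.39 ± 0.74 in SSY (adjusted p = 0.00317), -4.58 ± 0.81 in MG (adjusted p = 0.0103), -4.26 ± 0.81 in FGF (adjusted p = 0.0119) and -4.54 ± 0.81 in E1728G (adjusted p = 0.00853) in the limma fit. Its coding sequence was 100% identical over 1089 bases to that of AT5G36790, and the values of the pair differed by 0.226 log2 units at most in any library, so reads from the coding sequence of the pair cannot be told apart.

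The peroxisomal enzymes fell together: all 6 were called lower in all 4 stages, with medians of -6.26, -5.84, -4.95 and -5.08. GOX1 (AT3G14420), a glycolate oxidase, read 14.40 and 14.81 in ML1Y, 6.82, 6.52 and 7.13 in SSY, 7.40 and 7.23 in MG, 7.60 and 8.37 in FGF and 9.15 and 7.51 in E1728G. The SSY libraries were the lowest of all, and every stage library lay at least 5.25 units below ML1Y. It had the largest fall of the 32 genes in each stage: -7.78 ± 0.69 in SSY (adjusted p = 6.63e-05), -7.29 ± 0.76 in MG (adjusted p = 0.000988), -6.62 ± 0.76 in FGF (adjusted p = 0.00104) and -6.28 ± 0.76 in E1728G (adjusted p = 0.00136) in the limma fit, which is 220-fold in SSY and 77.5-fold in E1728G. GOX2 (AT3G14415), its neighbour on chromosome 3 with 92.4% identical coding bases, ran from -5.98 in SSY to -4.01 in E1728G, and its 2 highest stage libraries were those of E1728G. GGT1 (AT1G23310), a glutamate:glyoxylate aminotransferase, was 16.33 and 16.36 in ML1Y and 9.41 to 11.52 in the stages, with falls of 6.55, 6.48, 5.16 and 5.55.

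AGT (AT2G13360), the serine:glyoxylate aminotransferase, had the smallest SSY difference of the peroxisomal genes. It read 13.39 and 13.94 in ML1Y, 7.62, 8.13 and 9.77 in SSY, 9.16 and 9.36 in MG, 9.44 and 8.85 in FGF and 9.17 and 8.88 in E1728G, and SSY replicate 3 was the highest stage library. Against ML1Y, AGT differed by -5.16 ± 0.76 in SSY (adjusted p = 0.00131), -4.41 ± 0.83 in MG (adjusted p = 0.0144), -4.52 ± 0.83 in FGF (adjusted p = 0.0103) and -4.64 ± 0.83 in E1728G (adjusted p = 0.0087) in the limma fit. HPR (AT1G68010), the hydroxypyruvate reductase that follows AGT, fell by 6.60, 6.04, 5.78 and 5.52, calls that held in every fit that left out 1 library. CAT2 (AT4G35090), the catalase that removes the hydrogen peroxide made by glycolate oxidase, was lowest in SSY, at 6.71, 7.02 and 6.52, and 7.06 and 9.40 in MG, with falls of 5.50, 4.02, 3.63 and 3.63.

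In the mitochondrion, glycine decarboxylase and serine hydroxymethyltransferase turn glycine into serine. All 4 genes fell in SSY and in MG, and 3 of 4 in FGF and E1728G. GLDT (AT1G11860), the T protein of glycine decarboxylase, read 12.000 and 11.94 in ML1Y, 5.92, 5.90 and 6.14 in SSY, 7.87 and 5.97 in MG, 6.54 and 7.82 in FGF and 6.73 and 6.28 in E1728G. The SSY libraries agreed within 0.23 units, and MG replicate 2 was among them. Its log2 difference came to -5.98 ± 0.67 in SSY (adjusted p = 0.000237), -5.05 ± 0.74 in MG (adjusted p = 0.00418), -4.78 ± 0.74 in FGF (adjusted p = 0.00362) and -5.46 ± 0.74 in E1728G (adjusted p = 0.00173) in the limma fit. GLDH (AT1G32470), an H protein of the complex, had the smallest SSY difference of the 4. It read 10.49 and 10.76 in ML1Y, 8.46, 5.58 and 6.90 in SSY, 6.75 and 5.84 in MG, 6.84 and 6.70 in FGF and 6.32 and 5.50 in E1728G. SSY replicate 1 was the highest stage library and E1728G replicate 2 the lowest. Its falls were 3.64, 4.33, 3.85 and 4.71, with limma adjusted p of 0.0105, 0.0147, 0.0234 and 0.0078. SHM1 (AT4G37930), the serine hydroxymethyltransferase, fell by 5.10, 4.50, 4.78 and 4.31. GLDP1 (AT4G33010), a P protein, was -3.17 ± 0.85 in FGF and -3.08 ± 0.85 in E1728G, with adjusted p of 0.0736 and 0.0751, and was called in the other stages. Its calls held in 9 of 11 fits that left out 1 library in SSY and 4 in MG.

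GLYK (AT1G80380) returns glycerate to the chloroplast pool as phosphoglycerate and was the gene of the pathway that passed in no stage. It read 12.64 and 10.90 in ML1Y, 9.49, 9.45 and 9.85 in SSY, 12.89 and 10.17 in MG, 9.996 and 9.39 in FGF and 9.91 and 9.33 in E1728G. MG replicate 1 was the highest of all 11 libraries, and replicates differed by 1.74 units in ML1Y and 2.72 in MG, so that these groups overlapped, while the SSY, FGF and E1728G libraries lay below both ML1Y libraries. Against ML1Y, GLYK differed by -2.18 ± 0.86 in SSY (adjusted p = 0.173), -0.25 ± 0.94 in MG (adjusted p = 1), -2.08 ± 0.94 in FGF (adjusted p = 0.388) and -2.15 ± 0.94 in E1728G (adjusted p = 0.342) in the limma fit.

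Between consecutive stages few of the 32 genes passed the test, which does not show that their levels were equal. From SSY to MG 0 of 32 were called lower (background 0.375%) and 2 higher (background 1.75%), both CP12 genes. At an unadjusted p under 0.05 there were 0 lower and 7 higher. The background shares hold for the adjusted threshold only, so the unadjusted counts cannot be set against them. The median difference of the 32 was 0.52 log2 units, beside -0.05 over all genes tested. CP12-2 rose by 3.13 ± 0.52 (limma adjusted p = 0.0132, 8.73-fold) and CP12-3 by 2.71 ± 0.60 (adjusted p = 0.033, 6.55-fold), and for neither gene did the MG and SSY libraries overlap. Their SSY values, 3.01 to 3.61 and 3.65 to 4.43, lay near the filter for testing, 3.32 log2. CP12-2 kept its call in 10 of 11 fits that left out 1 library, missing it without MG replicate 2 (limma adjusted p = 0.0807). CP12-3 kept it in 4 of 11, and its difference ran from 1.99 without MG replicate 1 to 3.43 without MG replicate 2. Marker genes of other cells also differed between these stages. Of 6 early and middle lineage markers (SPCH, MUTE, TMM, EPF1, EPF2, BASL) all had higher means in MG and 3 were called higher (MUTE, EPF1 and EPF2), with a median of 2.63 and a summed share of 0.00237% to 0.00683% in SSY and 0.0146% and 0.103% in MG. Of the 6 epidermis markers all had higher means in MG and 2 were called higher (CER5 and LTP1), with a median of 0.61 and a summed share of 0.0150% to 0.0470% in SSY and 0.0394% and 0.140% in MG. Of 6 guard cell markers (FAMA, KAT1, KAT2, MYB60, HT1, TGG1) 5 had lower means in MG and 1, TGG1, was called lower, with a median of -1.06. Their summed share, 2.15% to 6.83% in SSY and 0.705% to 0.920% in MG, is mostly TGG1, the highest of the 6 in every library. Limma called 0 of 6 antenna and carbonic anhydrase genes and 0 of 4 vasculature markers (SUC2, APL, XCP1, XCP2) in this step, with 1 (LHCB2.1, higher) and 0 at an unadjusted p under 0.05. The part of any of these lists in the 2 CP12 differences was not tested. From MG to FGF (background 0.137% of genes in either direction) and from FGF to E1728G (0.0101%), limma called 0 of 32, and at an unadjusted p under 0.05 there was 1 lower and 0 higher in the first and 1 lower and 1 higher in the second.

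An F test over the 4 stages, without ML1Y in the contrast, called 3 of 32 genes (background 3.27%): CP12-2 (limma adjusted p = 0.015), CP12-3 (adjusted p = 0.0332) and TKL1 (adjusted p = 0.0458). The count was 1 in each fit without ML1Y replicate 1 or 2, without SSY replicate 1, 2 or 3, or without FGF replicate 1 or 2. Over MG, FGF and E1728G alone, in a test added after seeing the data, the count was 0, where the background was 0.0139%. At an unadjusted p under 0.05 the count was 4, and nothing about the 32 genes can be read from this test. The range of the 4 stage means was widest for TKL1, at 3.30 log2 units, followed by CP12-2 (3.13), CP12-3 (2.86) and RBCS2B (2.74), and narrowest for PGLP1 (0.317) and RPE (0.400). SSY had the lowest mean of the 5 groups for 19 genes, MG for 6, FGF for 3 and E1728G for 4. All 3 SSY libraries lay below all 8 others for 6 of 32 genes (FBA2, TKL1, CP12-1, CP12-3, GOX1 and CAT2), beside 4.96% of all genes tested.

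Further genes of the same pathways, 31 in all and chosen by function, had median differences nearer to 0. Several of the 31 had low ML1Y means, the lowest 4.32 for the transporter gene BASS6, which left little room for a fall. The part of these low levels in the medians was not tested. The 31 genes comprise other isoforms, assembly factors of Rubisco, transporters and ammonia refixation. Of them 15 fell in SSY, 5 in MG, 7 in FGF and 9 in E1728G, with medians of -1.99, -0.89, -1.06 and -1.18. Limma called 0 higher, and at an unadjusted p under 0.05 there were 0, 0, 2 and 1. PMDH2, a peroxisomal malate dehydrogenase, fell by 5.32 in SSY (limma adjusted p = 0.000237) and by 5.38 in FGF. GLDP2, a second P protein of glycine decarboxylase, fell by 5.15, 3.99, 4.03 and 3.84. The H protein gene GDCH (AT2G35370) read 10.87 and 11.07 in ML1Y, 4.99, 5.59 and 5.38 in SSY, 9.44 and 6.53 in MG, 6.70 and 7.73 in FGF and 6.34 and 6.29 in E1728G. MG replicate 1 was 2.91 units above MG replicate 2, and the fall was 5.65 in SSY (limma adjusted p = 0.000751) while MG, at -2.98, did not pass (adjusted p = 0.102).

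CPN60B, a subunit of the chaperonin that folds Rubisco, read 12.01 and 11.82 in ML1Y, 6.43, 5.94 and 6.93 in SSY, 9.41 and 9.59 in MG, 9.05 and 9.04 in FGF and 7.06 and 7.94 in E1728G. The 3 SSY libraries were below all others and E1728G replicate 1, at 7.06, came nearest to them. CPN60B fell by 5.48 in SSY (limma adjusted p = 0.000299) and was 3.07 ± 0.64 higher in MG than in SSY (adjusted p = 0.0272). The dihydrolipoamide dehydrogenase gene mtLPD1, whose product serves glycine decarboxylase among other complexes, read 9.73 and 9.74 in ML1Y, 6.09, 5.98 and 6.07 in SSY, 8.86 and 10.07 in MG, 9.24 and 9.40 in FGF and 7.80 and 9.10 in E1728G. All 3 SSY libraries lay below the other 8, with a fall of 3.69 (limma adjusted p = 0.00466), and MG was 3.42 ± 0.66 above SSY (adjusted p = 0.0201). These were the 2 of 31 called between those stages. The plastid gene ATCG00490, entered in the list as that of the Rubisco large subunit, read 14.01 and 13.75 in ML1Y, 11.06, 9.85 and 10.92 in SSY, 11.13 and 12.21 in MG, 11.38 and 12.15 in FGF and 10.87 and 13.29 in E1728G. Oligo-dT capture favours transcripts with long poly(A) tails, which plastid transcripts mostly lack, and its values are given for these libraries only. It fell by 3.27 in SSY (limma adjusted p = 0.0311), and the differences in MG, FGF and E1728G were -2.21, -2.12 and -1.80, none of which passed.

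Several of these reactions also run in the cytosol, in glycolysis and sucrose synthesis, with separate genes. Of 13 cytosolic counterparts, including PEP carboxylases, 2 fell in SSY and as many in MG, and 1 in each later stage, with medians of -0.75, 0.04, 0.23 and -0.25. Limma called 0 higher, and at an unadjusted p under 0.05 there were 1, 0, 2 and 1. The cytosolic fructose bisphosphatase gene FBP, an enzyme of sucrose synthesis, read 9.24 and 8.71 in ML1Y, 4.59, 5.28 and 5.21 in SSY, 6.03 and 5.55 in MG, 6.41 and 6.44 in FGF and 7.12 and 6.53 in E1728G. All 9 stage libraries were below ML1Y, and the log2 difference was -3.95 ± 0.51 in SSY (adjusted p = 0.000621), -3.18 ± 0.56 in MG (adjusted p = 0.00985), -2.55 ± 0.56 in FGF (adjusted p = 0.0271) and -2.15 ± 0.56 in E1728G (adjusted p = 0.0596) in the limma fit. FBA5, a cytosolic aldolase, was 6.87 and 6.95 in ML1Y and 4.28 to 5.63 elsewhere, and fell by 1.86 in SSY, 2.23 in MG and 2.07 in E1728G. The cytosolic triose phosphate isomerase TPI differed by -1.71, -0.96, -1.55 and -1.04, close to the plastid TIM, and none of these passed. GAPC2, FBA6 and FBA8 had SSY differences of -1.75 ± 0.79, 2.33 ± 0.85 and 2.04 ± 1.02, with limma adjusted p of 0.238, 0.14 and 0.287. FBA8 read 12.21 and 12.51 in ML1Y, 12.75, 13.37 and 17.08 in SSY, 12.39 and 12.40 in MG, 13.52 and 13.002 in FGF and 14.87 and 13.50 in E1728G. SSY replicate 3 lay 3.71 units above the next SSY library, and without it the SSY difference was 0.70. For FBA6 it was 3.05 without SSY replicate 1.

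**Figure D5:**
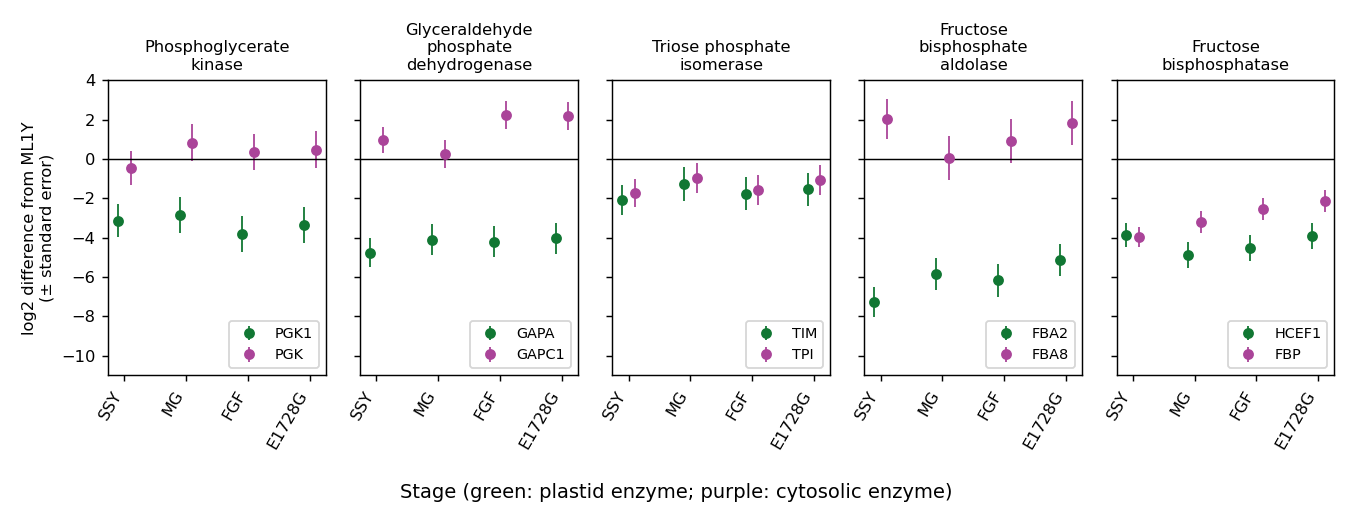
Log2 difference from ML1Y in the limma fit (vertical axis, with its standard error) in the 4 stages (horizontal axis) for a plastid gene (green) and a cytosolic gene (purple) of 5 reactions. PGK is the cytosolic phosphoglycerate kinase. GAPC1, which is drawn, had means of 13.94 in SSY and 12.99 in ML1Y. GAPC2, which is not drawn, had means of 9.61 in SSY and 11.37 in ML1Y. Other aldolase genes are not drawn. Of these, plastid FBA1 and cytosolic FBA5 fell in SSY. The aldolase FBA3, from the list of further pathway genes, had means of 8.23 in SSY and 7.74 in ML1Y, with 10.85 in SSY replicate 2. The SSY aldolase points are FBA2 at -7.28 and FBA8 at 2.04, the latter 0.70 without SSY replicate 3, and both triose phosphate isomerases lie between -2.07 and -0.96.

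The 500 bases before each start codon were searched on both strands in TAIR10.1 for a pair of short motifs known from light-regulated promoters. The G-box was taken as CACGTG, which reads the same on both strands, and the I-box as GATAAG or its reverse complement CTTATC. A G-box lay in 10 of the 32 windows (31.2%), beside 2562 of 27443 genes (9.34%). An I-box lay in 15 of 32 (46.9%), beside 6456 genes (23.5%), and both lay in 7 of 32 (21.9%), beside 627 (2.28%). By pathway, 9 of 20 Calvin cycle genes and 1 of 12 photorespiration genes had a G-box, and 15 of 20 and 0 of 12 had an I-box. No G-box shared a base with an I-box, and overlapping I-boxes were each counted. The 10 G-boxes are shown in 30 bases each on the strand of the gene, with the motif in capitals, because they show which enzymes share it.
RBCS1A (chr1:25049491-25049520, minus strand): ggaattatcttcCACGTGgcattattccag
RBCS2B (chr5:15382177-15382206, minus strand): ggagttttctgcCACGTGatcttatcctag
RBCS3B (chr5:15378506-15378535, minus strand): ggagttttctgcCACGTGgccttatcctag
RCA (chr2:16573579-16573608, minus strand): ataaacatattcCACGTGgaccaatcaaaa
FBA1 (chr2:9130296-9130325, minus strand): attatcatcatcCACGTGgcaaatcctcgt
HCEF1 (chr3:20016803-20016832, plus strand): taagagcaaagcCACGTGtcataacacaag
SBPASE (chr3:20709498-20709527, plus strand): ttcagttactgcCACGTGtcactctgaccg
RPE (chr5:24686009-24686038, minus strand): agaccgtaatcaCACGTGgcggattctcag
CP12-1 (chr2:19446740-19446769, plus strand): aaaatctaagtaCACGTGgcaaaatatgct
GLDP1 (chr4:15931438-15931467, minus strand): ttagatgcgataCACGTGgaatctgcaact
In RBCS2B and RBCS3B the bases around the G-box were nearly the same. The I-box nearest to the start codon on the gene's strand is shown for the 4 RBCS genes, because the bases after it are nearly the same in all of them, while those before it differ.
RBCS1A (chr1:25049462-25049491, minus strand): gcggttcaagccGATAAGggtctcaacacc
RBCS1B (chr5:15385303-15385332, minus strand): aaagaaagataaGATAAGggtgtcaacacc
RBCS2B (chr5:15382148-15382177, minus strand): gtggtccaaatcGATAAGggtgtcaacacc
RBCS3B (chr5:15378477-15378506, minus strand): gtggtgcgtaccGATAAGggtgtcaacacc
These matches are descriptions of the sequence, and binding was not measured. GOX1, which had the largest fall, held neither motif in its window, while FBA2, at -7.28 in SSY, held an I-box. CP12-3, which had the smallest difference in SSY, held an I-box, while TIM, at -2.07 in SSY, held neither. Any relation of the motifs to the differences over the 32 genes was not tested.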

How the data were processed

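The measurements are log2-scale, library-normalized expression values that the authors deposited as a single table with 1 column for each of the 11 libraries. Per the submitters' processing notes, Bowtie2 and DESeq2 were used with the TAIR10 build, without versions. The labels name no read counter, annotation or transformation; if the transformation shrank low values, low genes differ by more than shown. Base 2 was inferred because 2 to the power of the values summed to between 17236592 and 25175463 per library, as read totals do. Without read depths, neither counting intervals nor a test on counts could be used. The labels' description field speaks of microarrays, while the titles give RNA sequencing, which was followed.

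Groups were taken from the marker line in the titles. Genes at or above 10 on the linear scale (3.32 log2) in at least 2 libraries were tested, 29850 of 33602, and all 32 members passed. Differences came from limma-trend run under R 4.3.3 (package version 3.58.1), with a mean for each marker line in 1 model of the 11 libraries, two-sided, with Benjamini-Hochberg adjustment over genes within each of 7 comparisons, and from an F test over the 4 stages. A gene has the same estimated spread in every group. The code was tested on simulated data. For SSY against ML1Y it called 19 of 100 genes changed by 2 log2 units and 90 of 100 changed by 4. Alternatives left out each library in turn, added 1 on the linear scale, used no filter or one at 50, quantile normalization, library weights, a replicate block, or only the groups compared. Per-library values were given for the RBCS genes and RCA, for the member of each role with the largest and the smallest difference of SSY from ML1Y, and for members with the other sign. TKL1, CP12-2 and the genes described by a range were picked beyond this rule after their values were seen. The members and lists were chosen with earlier results of these data known.

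Names, coordinates and sequences came from the TAIR10.1 assembly and its RefSeq annotation, matched on locus code (Biopython 1.88, Python 3.11.15). The deposited table holds no coordinates. Coding identities came from pairwise alignment. RBCS shares used linear values per kilobase of coding sequence.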

Additional observations from a re-analysis of the deposited data

How the results depend on the processing

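Over the 11 fits that each left out 1 library, the number of the 32 genes called ranged from 18 to 29 for SSY against ML1Y, 6 to 25 for MG, 6 to 26 for FGF, 7 to 26 for E1728G, 0 to 2 for MG against SSY, 0 to 0 for the 2 later steps, and 1 to 3 for the F test. Leaving out a library removes samples from a small fit, and the effect of that was not separated from the effect of the library itself. For MG against SSY the count of 2 became 1 with library weights, 1 with the replicate block and 0 with only the groups compared. Over all genes tested, that comparison called 634 in the main fit and 145, 177 and 2 in these settings. For the F test the count of 3 became 1 with library weights, 0 with the replicate block, 1 with only the groups compared, and 0 over MG, FGF and E1728G alone. Over all genes tested, the F test called 976 in the main fit and 620, 348, 351 and 4 in these settings. The cause was not tested. Other settings kept the counts against ML1Y within 22 to 29, 23 to 26, 24 to 27 and 25 to 27. The replicate block gave 27, 24, 24 and 26 there. Same-numbered libraries of different groups deviated from their group means with correlations of -0.0798 to 0.0334 over 20 pairs. In groups of 2 libraries the deviations mirror each other, so pairs between such groups repeat the same value. These correlations cannot show whether same-numbered libraries were prepared together, and the block rests on the shared number alone. Of 4032 single values for the 32 genes under the alternatives, 3751 kept direction and side of the threshold, 244 lost the call, 37 gained one and none reversed with a call. Groups of 2 or 3 libraries of unknown depth limit the precision of every difference.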
